A study of Mus musculus with 11 samples.

Results

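Small nucleolar RNAs (snoRNAs) and small Cajal body RNAs of mouse embryonic stem cells (ESCs) were taken as every gene whose symbol starts with Snord, Snora or Scarna followed by a digit. The symbols gave 114 of the 23284 genes listed in all 11 libraries. They comprised 69 box C/D snoRNAs (Snord), 36 box H/ACA snoRNAs (Snora) and 9 small Cajal body RNAs (Scarna). Of these 114 RNAs, 104 were above 0 in at least 1 library. The remaining 10 were at 0 in every library, namely Snord116, Snord116l1, Snord116l2, Snord1a, Snord45c, Snord7, Snord93, Snora24, Snora26 and Snora35.

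The study asked how Tet enzymes, dioxygenases that oxidise methylcytosine, bear on RNA in ESCs, and it blocked transcription to follow RNA loss. WT_0h and WT_4h were wild-type ESCs, and TKO_0h and TKO_4h were cells of a previously derived line with Tet1, Tet2 and Tet3 knocked out, each with 2 ribodepleted total RNA libraries. The 4 h groups received 10 µg/ml α-amanitin, a toxin that blocks RNA polymerase II, for 4 h, and the 0 h groups are labelled as non-treated, the protocol naming water as the vehicle. WT_polyA comprised 3 libraries of polyadenylated RNA from wild-type ESCs with no treatment named. All cells were grown on gelatin with serum and leukemia inhibitory factor. The study names biological duplicates for the α-amanitin RNA-seq, whereas the labels do not say whether libraries of a group came from separate cultures. The p-values measure the spread between these libraries, part of which may be technical.

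Box C/D snoRNAs hold the C and D boxes, assemble with the methyltransferase fibrillarin and guide ribose methylation, mostly of ribosomal RNA. Box H/ACA snoRNAs fold into hairpins, assemble with dyskerin and guide the conversion of uridine to pseudouridine. Small Cajal body RNAs carry either or both kinds of box and guide the same modifications on the small nuclear RNAs of the spliceosome. Most vertebrate snoRNAs are cut from the spliced introns of host genes and trimmed to their mature ends, and the bound proteins then protect them from decay. Their supply therefore comes from RNA polymerase II transcripts, and mature snoRNAs carry no poly(A) tail.

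The sequences below show the 3 classes through members that the comparisons turn on. They were read from the NCBIM37 (mm9) genome at GENCODE vM1 coordinates and are written 5′ to 3′ as DNA. Of the 114 RNAs, 97 had an entry there, and the full sequence of each occurred once in the genome. The box C/D RNAs shown are Snord47 (chr1:162968213-162968289, plus strand), Snord2 (chr16:23109026-23109094, plus strand) and Snord49a (chr11:62416952-62417023, plus strand), which fell after α-amanitin in WT cells, Snord17 (chr2:144091715-144091952, minus strand), the most abundant of its class, and Snord64 (chr7:67123694-67123760, minus strand), which was not lower in polyA libraries. Capitals mark a C box (TGATGA) in the first 20 bases and a D box (CTGA) in the last 20 bases, and Snord2 holds no exact TGATGA there.
Snord47: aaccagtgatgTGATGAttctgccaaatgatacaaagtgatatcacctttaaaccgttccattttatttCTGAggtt
Snord2: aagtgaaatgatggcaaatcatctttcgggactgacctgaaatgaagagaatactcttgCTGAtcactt
Snord49a: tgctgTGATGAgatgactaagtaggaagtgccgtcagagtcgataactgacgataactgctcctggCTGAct
Snord17: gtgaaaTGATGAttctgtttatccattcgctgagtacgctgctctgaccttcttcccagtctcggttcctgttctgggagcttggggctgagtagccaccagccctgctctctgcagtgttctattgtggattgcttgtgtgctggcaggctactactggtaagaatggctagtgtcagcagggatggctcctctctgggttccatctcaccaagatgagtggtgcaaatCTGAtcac
Snord64: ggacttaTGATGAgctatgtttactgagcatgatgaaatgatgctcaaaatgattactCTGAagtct

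The box H/ACA RNAs shown are Snora41 (chr1:63225578-63225709, plus strand) and Snora65 (chr2:32818811-32818940, plus strand), which fell after α-amanitin in both genotypes, and Snora78 (chr17:24856621-24856748, minus strand), which did not pass the test in either. Capitals mark the ACA in the last 12 bases.
Snora41: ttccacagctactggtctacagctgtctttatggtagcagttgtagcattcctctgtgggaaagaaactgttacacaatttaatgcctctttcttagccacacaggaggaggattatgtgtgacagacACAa
Snora65: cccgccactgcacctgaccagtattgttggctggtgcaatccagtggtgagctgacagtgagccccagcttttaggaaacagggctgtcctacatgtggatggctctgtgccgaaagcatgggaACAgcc
Snora78: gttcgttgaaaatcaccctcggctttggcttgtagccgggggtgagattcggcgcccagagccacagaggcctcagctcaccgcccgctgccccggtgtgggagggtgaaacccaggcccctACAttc

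The Cajal body RNAs shown are Scarna6 (chr1:89681131-89681395, plus strand), which carries the C and D boxes, and Scarna13 (chr12:106269285-106269559, minus strand), which ends in an ACA box. Capitals mark the same letters as above.
Scarna6: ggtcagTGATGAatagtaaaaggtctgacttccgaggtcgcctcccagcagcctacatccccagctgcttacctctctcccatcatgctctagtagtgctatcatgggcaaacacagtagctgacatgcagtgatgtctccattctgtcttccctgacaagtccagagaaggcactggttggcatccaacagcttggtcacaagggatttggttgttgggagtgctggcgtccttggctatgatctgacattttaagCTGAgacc
Scarna13: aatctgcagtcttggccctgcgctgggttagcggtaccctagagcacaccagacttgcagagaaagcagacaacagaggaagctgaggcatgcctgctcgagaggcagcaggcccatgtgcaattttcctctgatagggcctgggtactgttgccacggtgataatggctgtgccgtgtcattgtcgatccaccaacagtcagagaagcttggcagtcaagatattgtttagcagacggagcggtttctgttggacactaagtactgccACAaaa

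The letters were unevenly spread over the classes. TGATGA stood in the first 20 bases of 34 of 56 annotated Snord (60.7%) and 0 of 32 Snora, and CTGA in the last 20 bases of 55 of 56 Snord (98.2%) and 4 of 32 Snora (12.5%). ACA stood in the last 12 bases of 30 of 32 Snora (93.8%) and 7 of 56 Snord (12.5%). The Scarna were mixed, with both C and D boxes in 4 of 9 and a terminal ACA in 5 of 9. Only the given strand was searched. Among 1577 annotated microRNA genes searched in the same windows, TGATGA was found in 0.1%, CTGA in 6.9% and ACA in 24.8%. Annotated lengths ran from 64 to 238 bases in Snord (median 78.5), from 127 to 196 in Snora (median 132.5) and from 70 to 414 in Scarna (median 140). By position, 59 of the 97 RNAs lay wholly in an intron of a gene on the same strand, 31 overlapped an annotated exon and 7 lay outside any such gene. Scarna3a and Scarna3b, Snord88a and Snord88c, and Snord1b and Snord1c shared 85.6%, 94.4% and 97.3% of their bases, so reads between these partners are uncertain.

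Values are TPM, a length-corrected share of the transcripts of a library. A change common to all transcripts cannot be seen in them, and in bulk RNA fewer cells and less RNA per cell cannot be told apart. In the ribodepleted libraries TPM was divided by a size factor per library (scaled TPM). Recovered read totals were 25632471 to 29908715 in ribodepleted and 73322241 to 82926572 in polyA libraries. In ribodepleted libraries Tet1 and Tet2 were lower in TKO (Tet1 at 21.3 to 32.8 TPM against 109 to 148 in WT, Tet2 at 5.91 to 8.32 against 40.4 to 57.2), whereas Tet3 was at 1.16 to 1.64 TPM in TKO and 1.06 to 1.47 in WT. All 6 ESC markers were detected, and their summed level was 1491 to 1551 TPM in TKO, 2063 to 2241 in ribodepleted WT and 2797 to 2891 in polyA WT libraries. Pou5f1 held most of this sum, and not every marker followed it. Nanog was at 33.6 to 48.4 TPM in TKO and 29.1 to 40.2 in ribodepleted WT libraries. Zfp42 was at 165 to 175 TPM in polyA WT and 353 to 513 in ribodepleted WT libraries. The summed level of 5 fibroblast markers was 9.86 to 11.3 TPM in TKO, 4.51 to 5.43 in ribodepleted WT and 2.59 to 4.16 in polyA WT libraries, and that of 5 neuron markers was at most 2.17 TPM. Their part in the TKO against WT differences was not tested.

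At 0 h in WT cells the Snord summed to 7919 and 8465 scaled TPM, the Snora to 6420 and 7038, and the Scarna to 3878 and 4594. A few RNAs held much of each sum. Snora74a, with a mean of 1625 scaled TPM over the 8 ribodepleted libraries, led the Snora, Snord17 (931) led the Snord and Scarna2 (2033) led the Scarna. The Scarna2 level was set on a counted length of 61 bases against 414 in the GENCODE annotation, and Scarna10 on 71 against 325, so their TPM depends on the annotation used. Among 93 RNAs with both lengths, 79 were longer in GENCODE than as counted. A total of 102 RNAs passed the minimum mean of 1 scaled TPM and were tested, 62 Snord, 32 Snora and 8 Scarna. Scarna3b and Snora36b were above 0 but under that minimum. Their mean recovered reads ran from 1.12 to 4514 per library (median 93.4).

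**Figure D1:**
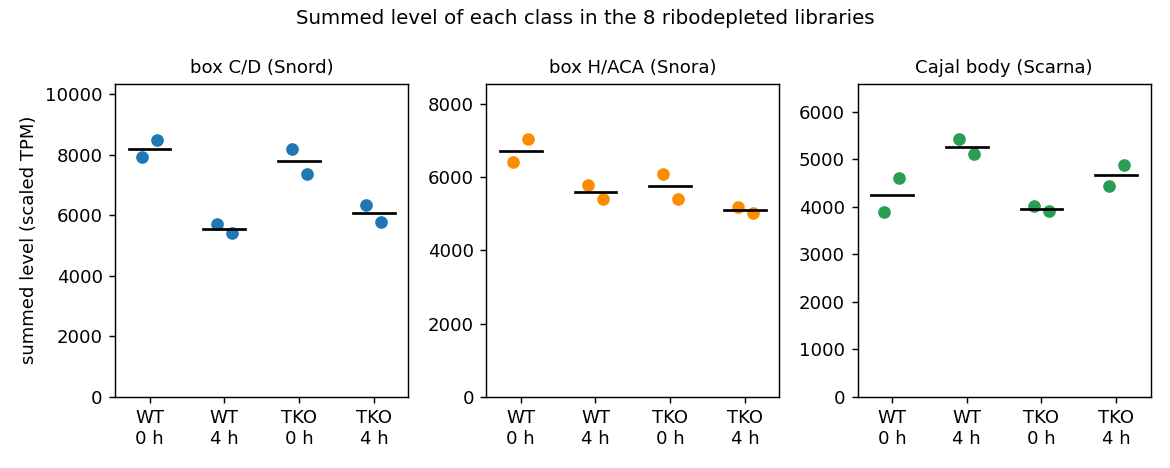
Summed scaled TPM of the Snord, Snora and Scarna RNAs (y axis, from 0) in the 4 ribodepleted groups (x axis); points are libraries and bars group means of 2. The Snord sum was 5695 and 5400 in WT at 4 h against 7919 and 8465 at 0 h, whereas the Scarna sum was 5416 and 5105 against 3878 and 4594.

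A large share of the snoRNAs fell in WT cells after α-amanitin, whereas no Cajal body RNA did. A gene was counted as changed when its Benjamini-Hochberg adjusted p over all tested genes (limma) was under 0.05 and its change exceeded 1.5-fold. By this call 47 of 102 RNAs fell and 0 rose, beside 2.01% of all 12465 tested genes called lower and 0.0882% called higher. The falls comprised 34 of 62 Snord (median log2 change of the class -0.78) and 13 of 32 Snora (-0.53), whereas 0 of 8 Scarna were called (0.24). The median over all tested genes was 0.03. Of the other tested features counted at under 200 bases, 77 of 241 were lower, with a median of -0.54. The libraries of the 2 groups did not overlap in 77 RNAs that were lower at 4 h and 7 that were higher, beside 32.5% and 40.5% of all tested genes.

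The box C/D RNAs with the largest falls included both rare and abundant species. Snord47, encoded in the noncoding host gene Gas5, was at 159.9 and 185 scaled TPM at 0 h and at 68.1 and 62.1 at 4 h. Its 0 h and 4 h libraries were far apart, and Snord47 fell 2.62-fold (log2 -1.39 ± 0.15 SE, limma adjusted p = 0.00239). Snord2, in the gene of the translation initiation factor Eif4a2, was at 447 and 455 scaled TPM at 0 h and at 192 and 181 at 4 h. It fell 2.41-fold (log2 -1.27 ± 0.13 SE, limma adjusted p = 0.00217) with no overlap of the groups. Snord49a was at 296 and 309 scaled TPM at 0 h and at 157 and 164 at 4 h. Its replicates lay close together, and its fall of 1.88-fold had the smallest adjusted p among these RNAs (log2 -0.91 ± 0.05 SE, limma adjusted p = 0.000174). Snord65 (log2 -1.37), Snord35a (-1.34) and Snord45b (-1.33) fell by similar amounts. Snord35b and Snord71 had larger estimates (-1.91 and -1.67) on means of only 16.9 and 7.50 reads.

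Not every box C/D RNA fell. Snord17, whose 238 bases make it the longest annotated Snord, was at 817 and 949 scaled TPM at 0 h and at 1105 and 922 at 4 h. Its groups overlapped (log2 0.20, limma adjusted p = 0.153). Snord22, a snoRNA needed for processing of small subunit ribosomal RNA, was at 487 and 603 scaled TPM at 0 h and at 434 and 364 at 4 h. Its 4 h libraries were both lower, but the difference missed the threshold (log2 -0.45, limma adjusted p = 0.0624). Snord64, in the imprinted Snrpn region, was at 341 and 297 scaled TPM at 0 h and at 302 and 307 at 4 h, with overlapping groups (log2 -0.06, limma adjusted p = 0.448).

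Among the box H/ACA RNAs, Snora41, from an intron of the elongation factor gene Eef1b2, was at 188 and 197 scaled TPM at 0 h and at 87.6 and 95.3 at 4 h. Its groups were far apart and it fell 2.09-fold (log2 -1.07 ± 0.07 SE, limma adjusted p = 0.000625). Snora65, within the ribosomal protein gene Rpl12, was at 213 and 245 scaled TPM at 0 h and at 123 and 119.8 at 4 h, and also fell (log2 -0.91 ± 0.07 SE, limma adjusted p = 0.00116). Snora61 and Snora68 fell by 0.73 and 0.65 on the log2 scale. The most abundant member did not. Snora74a was at 1674 and 1874 scaled TPM at 0 h and at 2102 and 1885 at 4 h, so that its higher values lay at 4 h (log2 0.17, limma adjusted p = 0.134). Snora78, hosted by the noncoding gene Snhg9, was at 458 and 581 scaled TPM at 0 h and at 558 and 493 at 4 h, with overlapping groups (log2 0.02, limma adjusted p = 0.91).

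The better covered Cajal body RNAs had slightly higher scaled values at 4 h. Scarna2 was at 1615 and 2125 scaled TPM at 0 h and at 2561 and 2272 at 4 h in WT cells. Scarna10, which carries both C/D and H/ACA boxes, was at 1319 and 1475 scaled TPM at 0 h and at 1649 and 1713 at 4 h. In both RNAs every 4 h library lay above every 0 h library. The differences were under 1.5-fold, with log2 values of 0.38 for Scarna2 (limma adjusted p = 0.0421) and 0.27 for Scarna10 (0.0233). Scarna6, Scarna9 and Scarna13 likewise had adjusted p under 0.05 at log2 differences of 0.22, 0.32 and 0.31. Scarna17 (0.17), Scarna8 (-0.34) and Scarna3a (-0.90) did not pass the test, and Scarna3a was at no more than 2.4 scaled TPM. An adjusted p under 0.05 was also common among all tested genes (37.7%), and an unadjusted p under 0.05, which 6 of 8 Scarna had, more so (49.1%). The Scarna median of 0.24 was 0.08 with deposited TPM and 0.10 with quantile normalisation, and limma voom on recovered reads called no Scarna. Over all 102 RNAs voom called 47 lower, beside 3.06% of all tested genes.

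**Figure D2:**
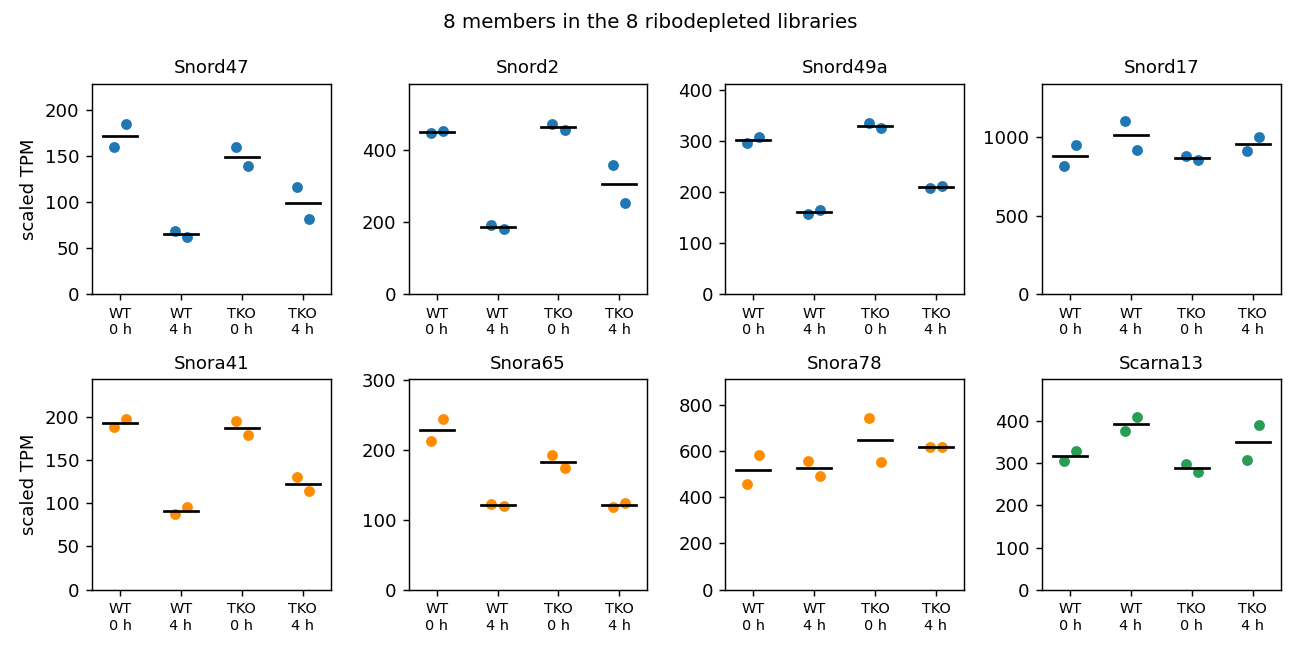
Scaled TPM (y axes, from 0, each with its own range) of 8 RNAs in the 4 ribodepleted groups (x axis); points are libraries and bars group means of 2. Snord47, Snord2, Snord49a, Snora41 and Snora65 lay lower at 4 h in both genotypes, whereas Snord17, Snora78 and Scarna13 did not.

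In TKO cells the same treatment gave smaller medians and few calls. Only 5 of 102 RNAs fell and 0 rose, beside 0.16% and 0% of all tested genes: Snord49a (log2 -0.65), Snord43 (-0.64), Snora52 (-0.62), Snora41 (-0.62) and Snora65 (-0.59). All but Snora52, which in WT lay just under the fold threshold (-0.58), had also fallen in WT. Snord49a was at 335 and 326 scaled TPM at 0 h and at 207 and 212 at 4 h in TKO, a fall of 1.57-fold with no overlap (limma adjusted p = 0.00328). Snora41 was at 195 and 179 scaled TPM at 0 h and at 130.1 and 114 at 4 h, again without overlap (limma adjusted p = 0.0444). Class medians were -0.46 for Snord, -0.29 for Snora and 0.22 for Scarna, beside 0.01 over all tested genes. Of the 47 RNAs that fell in WT, 46 had log2 values under 0 in TKO, with a median of -0.55 against -0.89 in WT. The 47 were picked by their WT change, which favours a larger median in WT, so these medians do not measure a genotype difference. At an unadjusted p under 0.05 there were 56 of 102 RNAs, beside 24.9% of all tested genes. Of the 241 other tested features under 200 bases, 71 (29.5%) had such a p. limma voom called 12 lower (beside 0.385% of all tested genes), 11 of which had fallen in WT.

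The number of calls in TKO turned on single libraries. The median log2 difference of all 102 RNAs from the mean of the 0 h libraries was -0.25 in TKO_4h replicate 1 and -0.47 in replicate 2. The latter lay nearer to the WT_4h libraries, at -0.61 and -0.71. Snord47 shows the gap, at 160.1 and 139 scaled TPM in the TKO_0h libraries, 116 in TKO_4h replicate 1 and 81.4 in replicate 2. The fit without TKO_4h replicate 1 called 30 RNAs lower, 23 of which had fallen in WT. Calls rose for all genes too in that fit, with 131 of 12465 lower (1.05%) against 20. In the fits without another TKO library or a WT_4h library, fewer of these RNAs and fewer of all tested genes were called.

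The difference between the genotypes was tested directly, as the TKO change minus the WT change. No RNA passed (0 of 102, beside 0% of all tested genes), with a smallest limma adjusted p of 0.531. At an unadjusted p under 0.05 there were 30 RNAs, beside 7.53% of all tested genes. Of the 241 other tested features under 200 bases, 54 (22.4%) had such a p. limma voom also called 0. It had 14 RNAs under that p, beside 7.8% of all tested genes and 28 of those 241 short features (11.6%). The differences were above 0, that is, a smaller fall in TKO, in 82 of 102 RNAs, whereas 6774 of 12465 tested genes lay under 0. The median difference was 0.32 in Snord, 0.23 in Snora and 0.05 in Scarna. The smallest unadjusted p values belonged to Snora69 (log2 difference 0.62), Snord45b (0.77) and Snord1c (1.10). Snord45b was at 226 and 240.4 scaled TPM in WT_0h, 86.7 and 98.0 in WT_4h, 190.0 and 156 in TKO_0h, and 119 and 114 in TKO_4h. Both 4 h groups lay under their 0 h groups, and the WT fall was the larger. The fit without TKO_4h replicate 2 leaves 1 library in that group. Snord2 and Snora34, picked by their values in that fit, had log2 differences of 0.90 and 0.86 there.

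**Figure D3:**
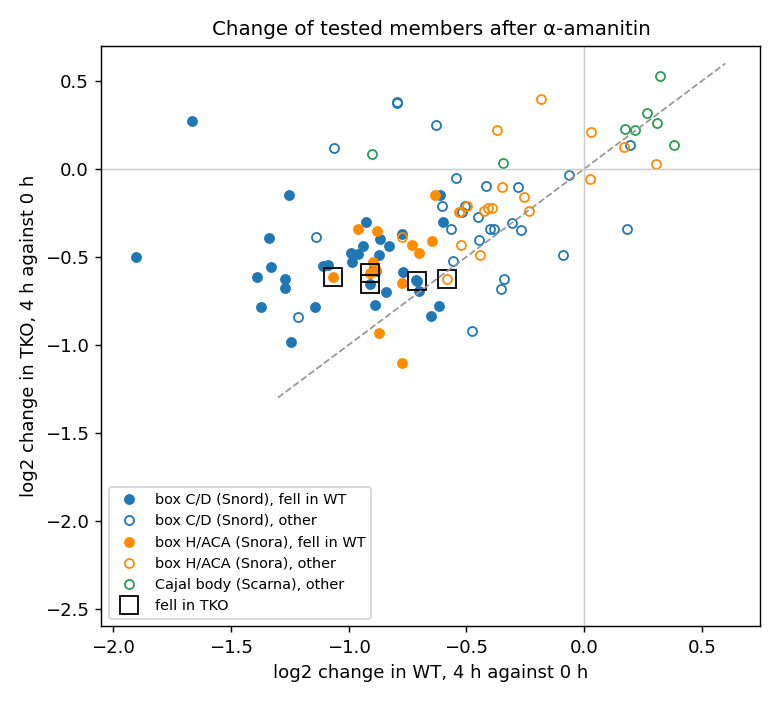
Log2 change after α-amanitin of 102 RNAs in WT (x axis) and in TKO (y axis), coloured by class; filled points fell in WT, squares mark the 5 that fell in TKO, and the dashed line marks equal change. Of the 47 filled points, 46 lie under 0 in TKO, and 82 of 102 points lie above the dashed line.

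Few of these RNAs were called between the genotypes. At 0 h, 3 RNAs were lower in TKO (beside 5.43% of all tested genes) and 1 was higher (beside 10.5%). Snora34 was at 56.4 and 61.5 scaled TPM in WT and 35.7 and 33.0 in TKO, a fall of 0.76 on the log2 scale without overlap (limma adjusted p = 0.00183). Snord91a was at 30.0 and 27.9 scaled TPM in WT and 48.5 and 42.9 in TKO, also without overlap (log2 0.64, limma adjusted p = 0.00193). Snord8 (-1.20) and Snora47 (-0.59) were the other lower RNAs, on means of 16.5 and 8.62 reads. These counts moved when single libraries were left out. Against the WT_0h mean, the 102 RNAs had a median log2 difference of -0.09 in TKO_0h replicate 1 and -0.25 in replicate 2. Over all tested genes it was -0.02 in both.

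At 4 h, 1 RNA was lower in TKO (beside 5.82% of all tested genes) and 8 were higher (beside 11%). Snord2 was at 192 and 181 scaled TPM in WT and 359.8 and 252 in TKO at 4 h, so the TKO libraries lay higher but far from each other (log2 0.69, limma adjusted p = 0.00194). Snord1c (0.73), Snord35a (0.72), Snord65 (0.67) and Snora5c (0.62) were the other higher RNAs with at least 20 reads on average. Snord71, Snord61 and Snord90, with 7.50, 1.12 and 3.25 reads on average, had estimates of 1.49, 1.46 and 1.42. Snord55 was the lower one (-0.63, limma adjusted p = 0.0316). Here too the counts moved when single libraries were left out. Against the WT_4h mean, the 102 RNAs had a median log2 difference of 0.20 in TKO_4h replicate 1 and 0.02 in replicate 2. Over all tested genes it was 0.01 and -0.02.

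The falls varied with length. In WT cells 28 of 47 RNAs annotated at under 100 bases fell (median log2 change -0.83), as did 14 of 36 at 100 up to 150 bases (-0.59) and 0 of 8 at 150 bases or more (0.24). The last bin is thin and held Scarna2, Scarna6, Scarna10, Scarna13, Snord17, Snora23, Snora74a and Snora81. In TKO the medians were -0.49, -0.32 and 0.14. Depth moved with length, since the 3 bins held a median of 53.8, 137 and 1455 reads per RNA. Across the 91 RNAs with a length, Spearman's rho was 0.43 between length and WT change, 0.46 between length and mean reads, and 0.41 between mean reads and WT change. Within classes rho between length and WT change was 0.15 over 53 Snord and 0.42 over 30 Snora, and it was 0.26 over the 83 RNAs under 150 bases. These RNAs share libraries and hosts, and the parts of length and depth were not tested.

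**Figure D4:**
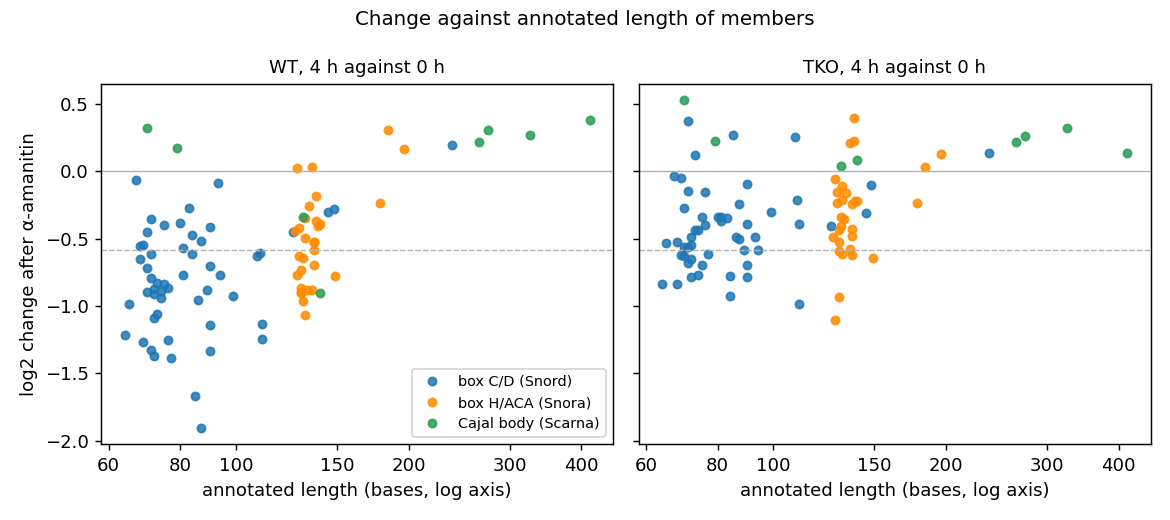
Log2 change after α-amanitin (y axis) against annotated length in bases (x axis, log scale) for 91 RNAs, in WT (left) and TKO (right); the dashed line marks a 1.5-fold fall. The 8 RNAs of 150 bases or more lie between -0.24 and 0.38 in WT, whereas 28 of the 47 under 100 bases fell.

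Because most of these RNAs are cut from the introns of other genes, their hosts were examined in the same fit. A tested host was found for 83 RNAs, in 61 genes. The median WT change of the hosts was 0.13, against -0.65 for the RNAs they carry, and 69 of 83 RNAs had a more negative log2 change than their host. Of the 40 RNAs that fell in WT and had a tested host, 11 had a host that fell and 22 a host with a log2 value above 0. Host types are the GENCODE vM1 labels, which were not checked further. Hosts labelled protein-coding were mostly level, with 3 of 54 lower and a median of 0.19. The 3 were Eif4a2 (-0.70), 1500012F01Rik (-0.91) and 1810032O08Rik (-0.67), and the split depends on their labels. Hosts labelled noncoding were lower in 5 of 7 (median -0.78). Among them Gas5 (-0.93), Snhg12 (-0.80) and Snhg1 (-0.78) fell. Reads of a host and of an overlapping snoRNA may be shared where the snoRNA lies in an exon, since the strand setting and overlap rule of the counting are not given in the sources used here. RNAs wholly in introns fell in 29 of 56 cases (median -0.71), those overlapping exons in 12 of 29 (-0.56), and those outside genes in 1 of 6 (0.05).

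Members of 1 host did not always move by the same amount. Snhg12 carries Snord99 (-0.94), Snora16a (-0.88) and Snora61 (-0.73), which fell, and Snora44 (-0.42), which did not reach 1.5-fold. The 4 RNAs in the ribosomal protein gene Rpl13a ranged more widely, from Snord35a, which fell by 1.34, to Snord32a (-0.27), while Rpl13a itself was at 0.25 (limma adjusted p = 0.0543). Across the 83 RNAs, Spearman's rho between the change of an RNA and that of its host was 0.12 in WT and 0.06 in TKO, with shared hosts and libraries.

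The mRNAs of proteins that bind and assemble these RNAs passed no call after α-amanitin. The list comprised 29 genes, namely the core box C/D proteins (such as fibrillarin, Fbl), the core box H/ACA proteins (such as Gar1 and Nop10) and assembly and Cajal body factors, and all 29 were tested. None was called in WT or in TKO (limma), with medians of 0.17 and 0.06. In WT 16 of 29 had an adjusted p under 0.05, beside 37.7% of all tested genes, at log2 changes under 1.5-fold. At an unadjusted p under 0.05 there were 19 in WT (beside 49.1%) and 10 in TKO (beside 24.9%). In TKO against WT, Nop10 (-0.64 at 0 h and -0.74 at 4 h), the ATPase gene Ruvbl1 (-0.88 and -0.90) and the H/ACA assembly factor gene Shq1 (-0.62 and -0.69) were lower at both times, 3 of 29 beside 5.43% and 5.82% of all tested genes, and no other gene of the list was called. limma voom likewise called none after α-amanitin. In polyA libraries 6 of 29 were higher, among them Fbl (1.00) and Gar1 (1.87), a share near the 18.7% of all tested genes. The export adaptor gene Phax was lower (-0.79), beside 16.4%.

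Most of these RNAs were much lower in polyA libraries, by uneven amounts. Of 101 RNAs tested, 85 were lower in WT_polyA than in WT_0h and 0 were higher, beside 16.4% and 18.7% of 12479 tested genes. The lower ones were 49 of 61 Snord (class median -2.29), 28 of 32 Snora (-2.49) and 8 of 8 Scarna (-4.71). The Scarna median depended on the filter and pseudocount, at -3.13 with all genes above 0, -6.53 with a mean above 10 TPM and -4.02 with a pseudocount of 5 TPM. RNA selection and depth differ together between these groups, and library kit and sequencing run may differ too, so they cannot be told apart. Levels in this comparison were scaled over its own 5 libraries. Scarna2 was at 2.65, 5.19 and 1.95 scaled TPM in the polyA libraries and at 1705 and 2245 in the ribodepleted ones, a 483-fold difference on the log2(scaled TPM + 1) scale (limma adjusted p = 1.68e-08). Scarna13 (156-fold), Snora78 (127-fold) and Scarna10 (114-fold) followed. These sizes and their order depend on the pseudocount. With 5 TPM the log2 differences of Scarna2, Scarna13, Snora78 and Scarna10 were -7.91, -5.78, -6.04 and -6.45, against -8.92, -7.29, -6.99 and -6.83.

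Some RNAs were as abundant in polyA libraries. Snora28, in the gene of the initiation factor Eif5, was at 129.9, 133 and 119 scaled TPM in polyA and 84.1 and 91.4 in ribodepleted libraries, a difference of 1.45-fold that was under the fold threshold (limma adjusted p = 3.4e-05). Snord64 was at 501, 503 and 370.2 scaled TPM against 359.5 and 314, with no overlap but a wide polyA spread (log2 0.43, limma adjusted p = 0.0122). Snord89 (0.53) and Snord96a (0.38) showed differences of the same size. In this direction 8 of 101 RNAs had a limma adjusted p under 0.05, none of them reaching 1.5-fold. Beside them stood 40.2% of all tested genes at any fold. The count of higher RNAs was 2 without WT_0h replicate 2 and 1 without WT_polyA replicate 1, and limma voom gave 86 lower and 0 higher.

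**Figure D5:**
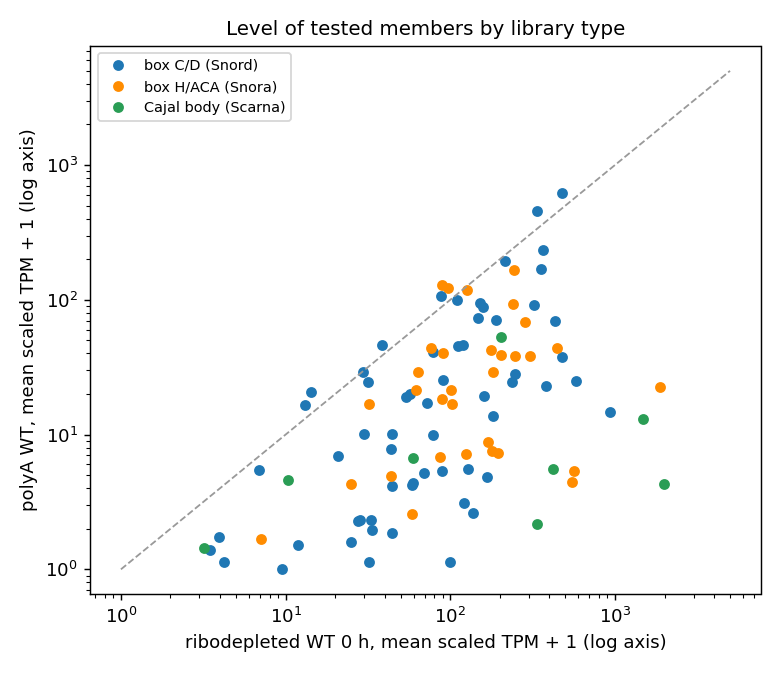
Mean scaled TPM + 1 of 101 RNAs in the 2 ribodepleted WT libraries at 0 h (x axis, log scale) and the 3 polyA WT libraries (y axis, log scale), coloured by class; the dashed line marks equal levels. Most points lie under the line, and 85 of 101 RNAs were lower in polyA libraries.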

How the data were processed

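RNA-seq of 11 libraries of mouse ESCs was analysed, in the groups given by the sample titles (WT_polyA, n = 3, and WT_0h, WT_4h, TKO_0h and TKO_4h, n = 2 each). The authors removed reads of ribosomal and transfer RNA with Bowtie2, trimmed adapters with Trimmomatic, aligned reads to mm9 with STAR and RefSeq genes, counted them with HTSeq and deposited TPM per gene. Tool versions and the strand setting are not given in the sources used here. Ribodepleted libraries had 150-bp read pairs per the labels, longer than many of these RNAs.

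Median-of-ratios size factors over the tested genes scaled the TPM of the 8 ribodepleted libraries. A linear model with 1 coefficient per group and no replicate block was fitted to log2(scaled TPM + 1) by limma 3.58.1 (R 4.3.3, eBayes with a trend). This scale understates changes of low genes. The test covered the 12465 genes whose mean scaled TPM exceeded 1, and WT_polyA was compared with WT_0h in a separate fit (12479). Calls needed a Benjamini-Hochberg adjusted p under 0.05 over all tested genes and a change over 1.5-fold. All tests are two-sided. The TPM values lie on steps of whole reads, which were recovered for 100% of 19869 genes (tolerance 0.01) and used for depth and for limma voom. Replicates differed by 1.56 to 11.2 times the sampling variance (chi-square per degree of freedom), so none was treated as a repeat. On simulated data with 2-fold changes in the WT comparison, 96.4% of 193 changed genes among 12470 were recovered, with 3 false calls. The simulation gave all genes 1 spread between replicates (dispersion 0.000488) and altered only WT_4h. Its 50 altered RNAs of the 3 classes had at least 20 reads on average. These rates were not measured for rarer RNAs of the classes or for the uneven spread of the real replicates.

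Members, gene lists and alternatives were chosen with earlier results of these data known. Named RNAs were the 5 Snord, 5 Snora and 3 Scarna of highest mean level, the 5 largest called falls and rises without overlap per contrast, the 3 smallest interaction p, the 4 largest polyA differences each way, all Scarna and Snord22. Hosts, members of Snhg12 and Rpl13a, RNAs of 150 bases or more, RNAs at 0 and calls gained without a library were named after their values were seen. Hosts are same-strand GENCODE vM1 genes whose span holds the RNA.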

Additional observations from a re-analysis of the deposited data

Results flagged for a closer look

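The TKO against WT difference had opposite signs at 0 h and 4 h in 8 RNAs, with no overlap between the genotypes at either time (8 of 102, beside 220 of all 12465 tested genes, 1.76%). In each the TKO libraries lay under the WT libraries at 0 h and above them at 4 h. Among the box C/D RNAs, the log2 differences at 0 h and 4 h were -0.37 and 0.73 for Snord1c, -0.22 and 0.72 for Snord35a, -0.44 and 0.34 for Snord45b, -0.18 and 0.34 for Snord87, and -0.24 and 0.35 for Snord92. Among the box H/ACA RNAs they were -0.24 and 0.053 for Snora61, -0.27 and 0.35 for Snora69, and -0.27 and 0.25 for Snora75. The change of the difference was tested as the interaction of genotype and treatment, and none of the 8 passed the adjusted p over all genes (limma, smallest adjusted p 0.531). Snord1c differs from Snord1b by 2 base edits, so its reads are uncertain.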

How the results depend on the processing

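Of the WT and TKO α-amanitin medians, those of Snord and Snora were under 0 and that of Scarna above 0 in every alternative run. The 47 WT falls became 35 to 49 when single libraries were left out, and the polyA falls 84 to 86. The TKO falls (5, beside 0.16% of all tested genes) became 14 with deposited TPM (0.409%) and 9 with quantile normalisation (0.233%). They became 12 with voom (0.385%) or with a mean above 10 TPM (0.395%). They became 1 with a pseudocount of 0.1 TPM (0.00802%) or with all genes above 0 (0.0154%), and 0 without the variance trend (0%). They were 0 to 30 with libraries left out. The interaction gave 0 in every alternative that kept all libraries, and moved only in the fit without TKO_4h replicate 2.

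The TKO against WT counts at 0 h (3 lower, 1 higher) moved with libraries left out. They became 1 lower among RNAs with at least 20 reads (this limit was chosen after seeing the data). They became 0 higher with a pseudocount of 5 TPM and 2 higher with all genes above 0. At 4 h (1 lower, 8 higher) they became 0 to 3 lower and 2 to 11 higher with libraries left out. There 0 were lower with deposited TPM, quantile normalisation, all genes above 0, a mean above 10 TPM or no trend, and 4 were higher with all genes above 0 and 5 among RNAs with at least 20 reads. PolyA libraries gave 2 higher with deposited TPM, 1 with quantile normalisation and 0 to 2 with libraries left out.

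Without a fold threshold there were 5 higher RNAs after α-amanitin in WT (21.9% of all tested genes), 22 lower and 4 higher in TKO at 0 h (28.2% and 27.8%), 6 lower and 22 higher at 4 h (30.3% and 29.1%), and 8 higher in polyA libraries (40.2%). Each of these counts is a smaller share of the RNAs than of all genes. The protein list gave 16, 17, 17 and 24 calls of 29 in either direction. Beside them stood 37.7%, 56.1%, 59.4% and 81% of all tested genes. With deposited TPM that list gave 1 call at 0 h and at 4 h instead of 3. With libraries left out it gave 2 to 3 at 0 h, 3 to 4 at 4 h and 7 to 8 in polyA libraries. The log2 ratio of the summed Snord level, 4 h over 0 h, was -0.56 in WT (-0.72 with deposited TPM, -0.69 with quantile normalisation) and -0.36 in TKO (-0.46 and -0.43). For Snora it was -0.27 in WT (-0.43 and -0.42) and -0.17 in TKO (-0.27 in both). For Scarna it was 0.31 in WT (0.16 and 0.13) and 0.23 in TKO (0.10 with quantile normalisation). Deposited TPM moved the median of all tested genes in WT to -0.11. The cause of these shifts was not tested.

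Blocking on the replicate number, the counts were 50 (WT) and 4 (TKO) falls, and no count moved by over 1.5 times. Same-numbered libraries did not deviate together over all genes (r between -0.04 and 0.12), and over these RNAs r was between -0.39 and 0.11. With 2 libraries a group this cannot settle whether same-numbered libraries were paired. Depth limits the 17 tested RNAs with a mean under 20 reads.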
